A study of Mus musculus with 8 samples.

Results

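The 10 genes examined here belong to the presynaptic release machinery, and the tumor expression table holds 27179 genes in all. They were Bsn, Pclo, Rims1, Rims2, Unc13a, Snap25, Stx1a, Syt1, Syn1 and Syp. The set was chosen by the fall of Bsn between these same groups of tumors, the largest among well expressed genes, so the values of Bsn are given as a description without a test. All 10 symbols were found in the table. The tumors were subcutaneous C26 mouse colon carcinomas grown in male CD2F1 mice of 13 to 18 weeks. A first group of 4 tumors (scr) came from cxC26 scr cells, the cachexia-inducing C26 line carrying a scrambled CRISPR/Cas9 guide RNA. The second group of 4 tumors (KO s1) came from cxC26 IL-6 KO s1 cells, in which the gene for interleukin-6 had been targeted by CRISPR/Cas9. The KO s1 line is 1 subclone, so the effect of the knockout and properties of that clone cannot be told apart. Mice were kept until they showed cachexia, a wasting syndrome, with a weight loss above 15% as the general end point. The number of cells implanted and the day of collection were not given for the sequenced tumors in the sources used here. Where the study compared scr and KO s1 tumors at cachexia in CD2F1 mice, it implanted more KO s1 cells and collected those tumors later. Cell number, tumor age and genotype thus cannot be told apart either.

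The active zone is the patch of presynaptic membrane where vesicles dock and release transmitter. Bassoon, made from Bsn, and piccolo, made from Pclo, are very large scaffold proteins of the active zone, and RIM proteins (Rims1, Rims2) tether vesicles there close to calcium channels. Munc13-1 (Unc13a) primes vesicles by opening syntaxin-1A (Stx1a), which forms the fusion complex with SNAP-25 (Snap25) and a vesicle VAMP. Synaptotagmin-1 (Syt1) is the calcium sensor of fast release, synapsin I (Syn1) clusters the vesicle pool and synaptophysin (Syp) is an abundant vesicle membrane protein. These genes are known mainly from neurons and neuroendocrine cells, and many of them are silenced elsewhere by REST, a repressor that binds the RE1 element.

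The sequences upstream of 3 members are shown, because Bsn and Stx1a had lower values in the KO s1 tumors while Syn1 carried the only part of an RE1 element found. They are from RefSeq on GRCm38.p6, in lower case, 5′ to 3′ on the gene's own strand, and stop before the first annotated transcribed base. Capitals mark the search words GCGCATGCG (bound by NRF1), TTCAGCACC (the left part of RE1) and TGACGTCA (CRE, bound by CREB). Bsn is chr9:108190420-108190633, minus strand. Stx1a is chr5:135023232-135023481, plus strand. Syn1 is chrX:20921005-20921168, minus strand.
Bsn: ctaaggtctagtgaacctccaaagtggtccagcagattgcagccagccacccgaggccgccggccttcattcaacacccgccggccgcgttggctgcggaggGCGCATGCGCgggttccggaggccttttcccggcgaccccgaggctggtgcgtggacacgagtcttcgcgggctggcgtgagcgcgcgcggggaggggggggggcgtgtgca
Stx1a: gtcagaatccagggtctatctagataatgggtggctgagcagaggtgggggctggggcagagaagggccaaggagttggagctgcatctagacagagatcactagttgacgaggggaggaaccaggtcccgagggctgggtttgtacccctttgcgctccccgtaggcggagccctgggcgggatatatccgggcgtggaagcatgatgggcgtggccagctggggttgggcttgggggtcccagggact
Syn1: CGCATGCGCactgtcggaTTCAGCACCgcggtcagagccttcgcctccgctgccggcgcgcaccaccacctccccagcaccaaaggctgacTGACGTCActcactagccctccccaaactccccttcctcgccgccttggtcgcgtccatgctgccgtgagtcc

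The words were searched on both strands of the 250 bases before each RefSeq start, which were at hand for 8 of the 10 members in 9 windows (Syt1 had 2 windows, and Rims2 and Snap25 had none). The window of Bsn was rich in G and C (71.6%) and held 32 CpG, against a median of 52.4% and 6 CpG over all 32851 windows. It held GCGCATGCG at 2 places, 1 of which is in the printed stretch, and each place matched on both strands because the words overlap there. This word was in 1.45% of all windows. The window of Syn1 held GCGCATGCG, TTCAGCACC (0.301% of all windows) and TGACGTCA (1.55%) at 1 place each, the first of them on the other strand. The window of Stx1a held none of these words and had 62.0% G and C with 9 CpG. Its only match was 1 GC box (GGGCGG, 32.7% of all windows). The words of AP-1 (TGANTCA, 6.75%), STAT (TTCNNNGAA, 7.02%), the E-box CACGTG (6.02%) and the right part of RE1 (GGACAGC, 5.28%) had no match in any member window. A match is a description of letters only, and the words were chosen with these sequences in view.

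The read totals over genes ran from 14158989 to 17048062 per tumor and overlapped between the groups. For Il6, the targeted gene, reads numbered 356, 326, 376 and 438 in scr and 64, 56, 86 and 59 in KO s1. All values are CPM, that is reads scaled to the size of the library, or log2 CPM, and the groups were compared with limma on the 13262 genes that reached 1 CPM in 4 or more of the 8 tumors. Of these genes 20.7% were called lower and 19.1% were called higher in the KO s1 tumors at a Benjamini-Hochberg adjusted p-value under 0.05. For 37.1% of the tested genes the groups had no overlap. In bulk tumors, fewer cells of one type and less RNA per cell cannot be told apart.

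Of the 10 members, 7 passed the filter on low values, and Rims1, Pclo and Syt1 did not. Of the 6 that were tested beside Bsn, 3 were called lower (Rims2, Stx1a, Snap25), against 20.7% of all tested genes, and 0 were called higher. At an unadjusted p-value under 0.05 the count of higher members was also 0, and limma without a mean-variance trend called 1 (Syp). Snap25 passed the filter only through the scr group, so its call was fixed in part by the filter. The plot of the 10 members by tumor shows these values.

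**Figure D1:**
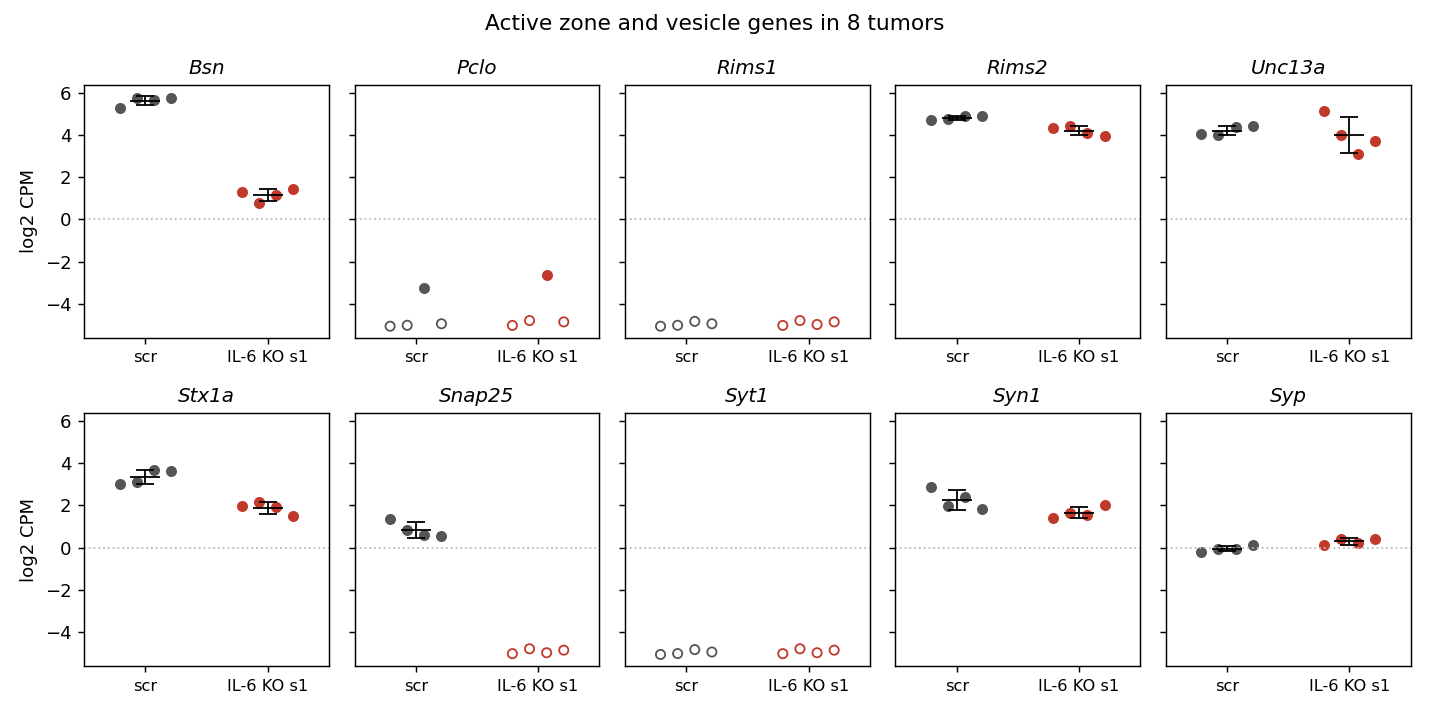
Expression (log2 CPM, vertical axis) of the 10 members in the 4 scr (grey) and 4 KO s1 (red) tumors. Filled circles are single tumors, open circles are tumors without a read, and bars are the mean ± SD where every tumor had reads. Bsn sits at a mean of 5.60 in scr and 1.16 in KO s1, and Snap25 has no read in any KO s1 tumor.

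Among the scaffolds, Bsn (ENSMUSG00000032589, chr9:108096022-108190419, RefSeq GRCm38.p6) had 652, 865, 717 and 817 reads in the scr tumors and 39, 23, 34 and 39 reads in the KO s1 tumors. As CPM these were 39.1, 53.4, 50.4 and 53.1 against 2.40, 1.66, 2.16 and 2.69. Every scr tumor was far above every KO s1 tumor, and within each group the values were close together. The mean fell from 49.0 ± 6.75 CPM to 2.23 ± 0.437 CPM (SD, n = 4 each), which is 4.55% of the scr level or 22.0-fold lower. The log2 fold change was -4.45 with a standard error of 0.174. Among the 9998 tested genes whose mean reached 3 log2 CPM this was the largest fall, followed by Areg at -4.04 and Il11 at -3.69. Among all 13262 tested genes it ranked 18, and 10 of the 17 genes with a larger fall had 3 reads or fewer in the whole KO s1 group. Bsn shared 0.358% of its exon bases in GENCODE M21 with another annotated gene, a miRNA gene on the same strand.

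The other scaffold was close to absent. Pclo (ENSMUSG00000061601) had 1 read in 1 scr tumor, 2 reads in 1 KO s1 tumor and none elsewhere. These 3 reads of 122846614 are at the level that a count of 0 allows, 0.0244 CPM over all tumors (counting error only). Per kilobase of exon, Bsn stood at 3.07 ± 0.424 CPM per kb in the scr tumors and 0.140 ± 0.0274 CPM per kb in the KO s1 tumors (SD, n = 4 each). In both groups the Bsn level per kb was therefore above that of Pclo.

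Of the RIM genes, Rims1 (ENSMUSG00000041670) had 0 reads in all 8 tumors, which allows up to 0.0244 CPM over all tumors. Rims2 (ENSMUSG00000037386, chr15:39198286-39684372) had 440, 431, 427 and 449 reads in the scr tumors and 325, 294, 267 and 226 reads in the KO s1 tumors. The groups did not overlap, and the mean went from 28.0 ± 1.82 to 18.4 ± 2.61 CPM (SD, n = 4 each). The log2 fold change of Rims2 was -0.61 (SE 0.121, 95% interval -0.88 to -0.35), with a limma adjusted p of 0.00208, so Rims2 fell. It was the RIM gene with the highest level per kb, at 2.70 CPM per kb in scr and 1.77 CPM per kb in KO s1. Rims3 had 3 and 14 reads and Rims4 had 1 and 2 reads over the scr and the KO s1 group.

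Unc13a (ENSMUSG00000034799, chr8:71624125-71671774) did not pass the test and had the widest spread of the tested members. It had 271, 257, 292 and 326 reads in the scr tumors, with a mean of 18.5 ± 2.78 CPM (SD, n = 4). The KO s1 tumors had 562, 221, 136 and 191 reads, with a mean of 18.1 ± 11.4 CPM (SD, n = 4). In CPM, replicate 1 of KO s1 was above all scr tumors and replicates 3 and 4 were below them. The log2 fold change was -0.21 (95% interval -0.92 to 0.50, limma adjusted p = 0.640). Without KO s1 replicate 1 it was -0.58 with a limma adjusted p of 0.0368, and without replicate 3 it was 0.08 with a limma adjusted p of 0.845. In GENCODE M21, 3.92% of the exon bases of Unc13a lie over Colgalt1 on the opposite strand, a gene at 7.48 log2 CPM in scr, and the strand setting of the counting was not given in the sources used here. Of the related UNC13 genes, Unc13d, which primes secretory granules in blood cells, rose (log2 fold change 1.08, limma adjusted p = 0.00428), while Unc13b (0.02) and Unc13c (-0.73) did not pass the test.

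Stx1a and Snap25, the membrane partners of the fusion complex, were both called lower. Stx1a (ENSMUSG00000007207, chr5:135023482-135051100) had 7.97, 8.59, 12.6 and 12.1 CPM in the scr tumors and 3.88, 4.40, 3.81 and 2.76 CPM in the KO s1 tumors. The groups did not overlap. The mean fell from 10.3 ± 2.40 to 3.71 ± 0.687 CPM (SD, n = 4 each), 2.79-fold lower, with a log2 fold change of -1.46 (SE 0.211, 95% interval -1.921 to -0.999, limma adjusted p = 0.000321). No annotated gene in GENCODE M21 overlapped Stx1a.

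Snap25 (ENSMUSG00000027273, chr2:136713439-136782428) had 42, 28, 21 and 22 reads in the scr tumors and 0 reads in each of the 4 KO s1 tumors. Its mean in scr was 1.79 ± 0.504 CPM (SD, n = 4). Against 3 reads over the whole KO s1 group, Snap25 was at least 36.4-fold lower there (limma adjusted p = 1.13e-05). Snap25 passed the filter only through the scr group and had only offset values in KO s1, so that p-value adds no support. Among all tested genes its fitted fall ranked 8, but the fitted value of a gene without reads depends on the read offset and is not given as a fold. This bound covers counting error only.

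Among 8 related genes that serve fusion in other cells, 0 were called lower at a limma adjusted p under 0.05 (0 also at an unadjusted p under 0.05), against 20.7% of all tested genes, and 3 were higher, against 19.1%. These 8 were chosen after their values were seen, so their counts say nothing about fusion genes at large. Of all 23 tested genes for SNAREs and their regulators, 4 were lower, Vamp1 (-1.38) and Nsf (-0.59) among them, and 7 were higher. In CPM per kb, Snap23, the widely expressed SNAP-25 paralog, was at 13.8 ± 1.05 in scr and 14.8 ± 0.782 in KO s1 (SD, n = 4 each), and its log2 fold change of 0.10 did not pass the test (limma adjusted p = 0.361). Snap29 rose from 8.61 to 12.2 CPM per kb (log2 fold change 0.49, limma adjusted p = 0.00185). Snap47 had 12.8 and 14.8 CPM per kb and did not pass the test. The level of Snap25 per kb in scr was 0.263 CPM per kb, below those of the 3 relatives. Among syntaxins, Stx4a (42.5 and 40.8 CPM per kb), Stx12 (35.4 and 36.0) and Stx2 (9.62 and 9.20) did not pass the test. Stx7, a syntaxin of late endosomes, rose from 7.77 to 14.4 CPM per kb (log2 fold change 0.89, limma adjusted p = 1.55e-05). Stx3, a syntaxin of apical membranes, rose from 2.36 to 4.23 CPM per kb (log2 fold change 0.84, limma adjusted p = 0.000926).

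**Figure D2:**
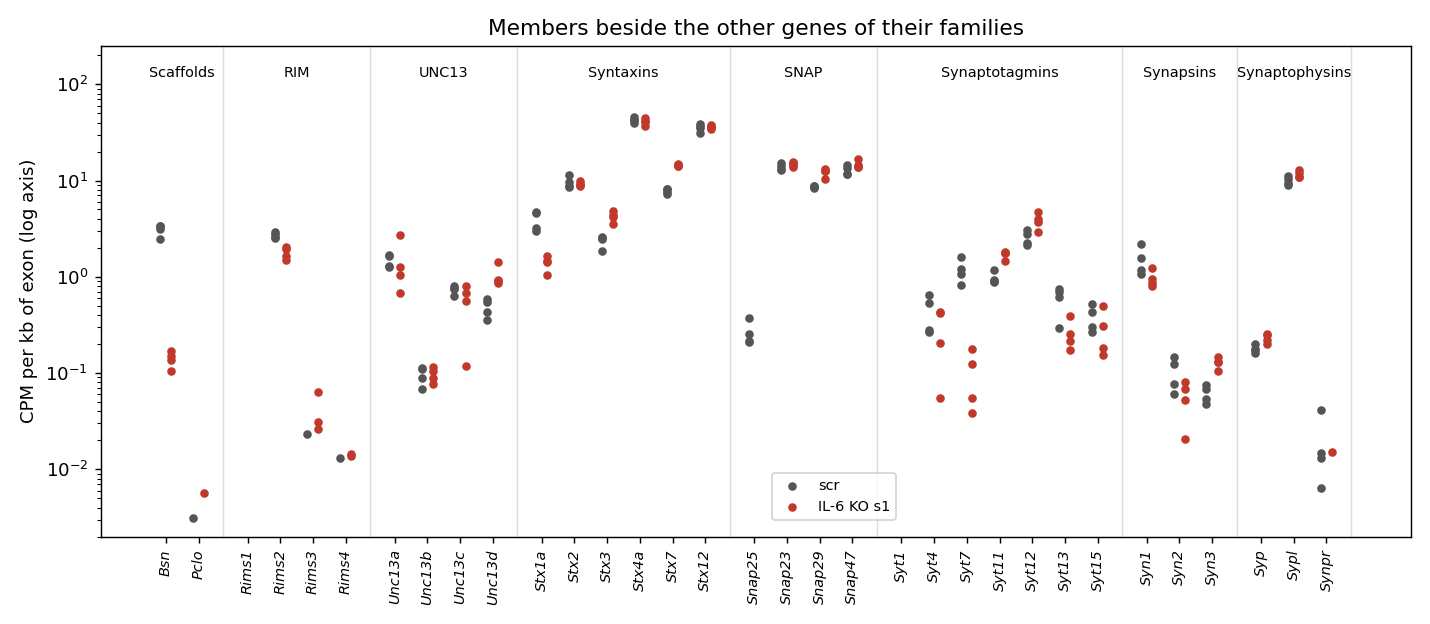
Level per length (CPM per kb of exon, log axis) of the members beside other genes of their families, with 1 point per tumor for scr (grey) and KO s1 (red). Tumors without reads cannot be drawn on a log axis and are left out, so Rims1 and Syt1 have no points and Snap25 has points in scr only. Stx4a, Stx12 and Snap23 lie above Stx1a and Snap25 in all tumors.

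The vesicle genes showed no call. Syt1 (ENSMUSG00000035864) had 0 reads in all 8 tumors, which allows up to 0.0244 CPM over all tumors. Syn1 (ENSMUSG00000037217, chrX:20860511-20920918) had 7.19, 3.89, 5.20 and 3.51 CPM in the scr tumors and 2.65, 3.10, 2.85 and 4.07 CPM in the KO s1 tumors. The groups overlapped, since replicate 4 of KO s1 was above replicates 2 and 4 of scr. The log2 fold change of Syn1 was -0.60 (SE 0.252, 95% interval -1.15 to -0.05) and its limma adjusted p was 0.0792, while quantile normalization gave -0.75 with a limma adjusted p of 0.0372. Syn1 encloses Timp1 on the opposite strand, with 0 shared exon bases, and shares 0.273% of its exon bases with Araf.

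Syp (ENSMUSG00000031144, chrX:7638580-7653256) had 14, 15, 13 and 16 reads in the scr tumors and 17, 18, 18 and 19 reads in the KO s1 tumors. As CPM the groups did not overlap, with means of 0.930 ± 0.0828 and 1.20 ± 0.128 CPM (SD, n = 4 each), but counts of this size carry a large counting error. The log2 fold change of Syp was 0.36 (SE 0.277, 95% interval -0.25 to 0.96, limma adjusted p = 0.329). Without the mean-variance trend the limma adjusted p was 0.0315. An antisense gene lies over 16.8% of the exon bases of Syp.

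By level per kb in the scr tumors, the order of the members was Stx1a, Bsn, Rims2, Syn1, Unc13a, Snap25, Syp, Pclo, and Rims1 and Syt1 at 0. The mean of Bsn (3.07 ± 0.424 CPM per kb) lay within 1 SD of that of Stx1a (3.88 ± 0.900), and the mean of Rims2 (2.70 ± 0.175) within 1 SD of that of Bsn, but not the other way round. The means of Syn1 (1.4999 ± 0.504) and Unc13a (1.46 ± 0.220) lay within each other's SD (n = 4 for all). In the KO s1 tumors the order was Rims2 (1.77 ± 0.252), Unc13a (1.43 ± 0.904), Stx1a (1.39 ± 0.258), Syn1 (0.961 ± 0.191), Syp (0.230 ± 0.0246) and Bsn (0.140 ± 0.0274), also with SD and n = 4. The means of Unc13a and Stx1a lay within each other's SD, and that of Rims2 within the SD of Unc13a. Bsn thus stood beside the most abundant members in scr and below Syp in KO s1. Rims2, Unc13a, Stx1a and Syn1 were above Bsn in every KO s1 tumor.

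The tumors were also described by how the members followed Bsn. Pearson's r with Bsn over the 8 tumors was 0.99 for Snap25, 0.93 for Stx1a, 0.89 for Rims2, 0.65 for Syn1, 0.21 for Unc13a and -0.81 for Syp. These values share the difference between the groups. After the group means were removed, r was -0.18 for Stx1a, -0.41 for Rims2, -0.32 for Syn1, 0.15 for Unc13a and 0.15 for Syp. Snap25, which had no reads in KO s1, was given no value within the groups. Among 9997 well expressed genes, the 5 with the highest r over the 8 tumors were Atg4b (0.996), Egfr (0.994), Rbbp5 (0.993), Il33 (0.992) and Usp28 (0.992). Egfr, the receptor for epidermal growth factor, had a log2 fold change of -3.35 and Il33, an alarmin cytokine, of -1.997. After removal of the group means the 5 highest were Yeats2 (0.980), Vcpip1 (0.978), Hpgds (0.974), Eif1a (0.973) and Rfc1 (0.961). With 8 tumors in 2 groups many genes reach such values, and they are given as a description.

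Beyond the members, 180 other genes in 8 lists were looked at, of which 106 were tested and 10 had no read. The lists hold synaptic genes, except for the list of REST and its cofactors, with 13 tested genes. They are not purely presynaptic. The synaptic adhesion list also holds genes of the postsynaptic side, such as Nlgn2, which was called lower, and the active zone list holds the postsynaptic scaffold gene Dlgap1. Of the 106, 30 were called lower (28.3%, against 20.7% of all tested genes) and 23 were called higher (21.7%, against 19.1%). Their median log2 fold change was -0.07, beside -0.003 over all tested genes. The plot of changes by list sets them beside the members.

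**Figure D3:**
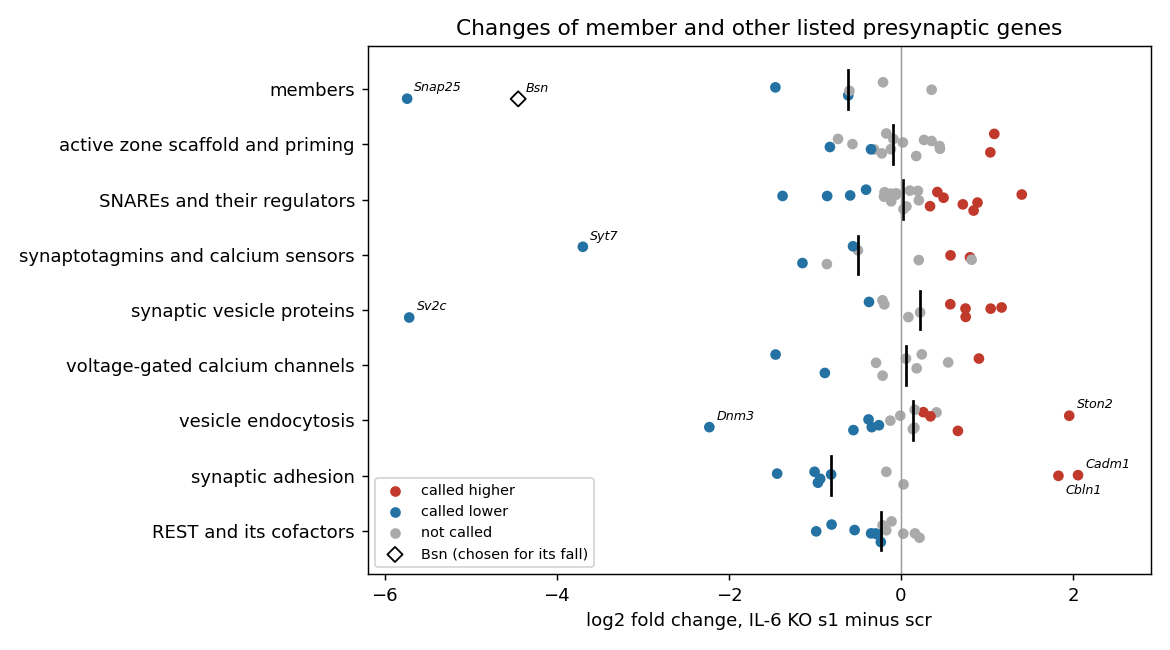
Log2 fold change (horizontal axis, KO s1 minus scr) of the tested members and of 106 other tested genes, 1 row per list. Beside the members, the rows are lists of synaptic genes and the list of REST and its cofactors. Colours give the limma call, black bars are medians and the open diamond is Bsn. Snap25 at -5.74 and Sv2c at -5.72 are fitted values with 0 and 1 reads in KO s1, not measured folds. The lists scatter on both sides of 0, with Sv2c (-5.72) and Syt7 (-3.70) farthest to the left and Cadm1 (2.06) and Ston2 (1.96) farthest to the right.

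In the active zone list of scaffold and priming genes, 17 of 24 genes were tested. Of these, 2 were lower (against 20.7% of all tested genes), 2 were higher (against 19.1%) and 13 were not called. Ppfia1, a liprin that organizes presynaptic sites and is also expressed outside neurons, fell by 0.83 on the log2 scale (limma adjusted p = 2.80e-05). Git1 (-0.35) also fell, and Tspoap1, a RIM-binding protein gene, rose by 1.04. Tspoap1 reached 1 CPM in 4 KO s1 tumors but in 2 scr tumors, so it passed the filter through the KO s1 group. The Tspoap1 change lost its call without any 1 of scr replicates 2, 3 and 4 and KO s1 replicates 1 and 3 (limma adjusted p up to 0.0842 there), with quantile normalization (limma adjusted p = 0.0598) and without the filter on low values (limma adjusted p = 0.111). The Git1 change lost its call without KO s1 replicate 3 (limma adjusted p = 0.0645). Ctbp1, a corepressor that binds bassoon and had the highest level in this list, had a log2 fold change of -0.17 and did not pass the test. Erc1, an ELKS scaffold, had -0.09 and Erc2 had -0.22, and neither passed the test.

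Of the 23 tested genes for SNAREs and their regulators, 4 were lower (against 20.7% of all tested genes) and 7 were higher (against 19.1%), with a median of 0.03. Vamp1, a vesicle VAMP, fell by 1.38 on the log2 scale, Cplx2, a complexin that clamps the fusion complex, fell by 0.86, and Nsf, which takes used complexes apart, fell by 0.59. Stxbp2, a Munc18 that serves granule release in blood and epithelial cells, had the largest rise of this list at 1.40. Among synaptotagmins and calcium sensors, 3 of 9 were lower and 2 were higher, against the same shares. Syt7, a high-affinity calcium sensor, had 201, 128, 128 and 95 reads in scr and 15, 4, 21 and 6 reads in KO s1, and its groups did not overlap. It fell by 3.70 on the log2 scale (SE 0.420, limma adjusted p = 6.58e-05). Syt13 fell by 1.15, while Syt11 and Syt12 rose by 0.80 and 0.58. Syt7 and Syt13 each reached 1 CPM in 4 scr tumors but in 1 KO s1 tumor. They thus passed the filter through the scr group, which in part fixed their calls. The Syt13 change lost its call without any 1 of scr replicates 1, 3 and 4 and KO s1 replicate 2 (limma adjusted p up to 0.0785) and without the filter on low values (limma adjusted p = 0.102), and the Syt12 change lost its call without scr replicate 3 or 4 (limma adjusted p up to 0.0542).

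Of the 11 tested synaptic vesicle genes, 2 were lower (against 20.7% of all tested genes) and 5 were higher (against 19.1%). Sv2c, a vesicle transporter-like protein, had 41, 27, 36 and 39 reads in scr and 0, 0, 1 and 0 reads in KO s1 (limma adjusted p = 1.55e-05). Like Snap25 it passed the filter only through the scr group. Syngr1 (1.17), Syn3 (1.04) and Slc18a2 (0.75), a vesicular monoamine transporter, rose. Syn3 passed the filter only through the KO s1 group, and the Syn3 change lost its call without the filter (limma adjusted p = 0.0688). Of 9 tested calcium channel genes 2 were lower (against 20.7% of all tested genes) and 1 was higher (against 19.1%). Cacna1c (-1.46) and Cacna1a (-0.88), which encodes the P/Q-type channel of active zones, fell and Cacnb3 (0.91) rose.

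For vesicle endocytosis 5 of 15 tested genes were lower (against 20.7% of all tested genes) and 4 were higher (against 19.1%), led by the dynamin Dnm3 (-2.23) and the clathrin adaptor Ston2 (1.96). For synaptic adhesion 5 of 9 tested genes were lower, against the same 20.7%, among them the receptor phosphatases Ptprf (-1.44) and Ptprs (-1.004). In that list 2 were higher, against 19.1%, Cadm1 (2.06) and Cbln1 (1.83). Cbln1 reached 1 CPM in 4 KO s1 tumors but in 1 scr tumor, so it passed the filter through the KO s1 group. For REST and its cofactors 7 of 13 tested genes were lower (against 20.7%) and 0 were higher (against 19.1%) at a limma adjusted p under 0.05, and 3 further genes had an unadjusted p under 0.05 without a call, of which 2, Hdac2 (0.22) and Hmg20b (0.16), had higher means. Rest itself fell by 0.99 on the log2 scale (SE 0.103, limma adjusted p = 3.76e-05), with Rcor2 at -0.81 and Rcor1 at -0.54.

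Markers of cells that could carry these genes were read beside the members. Their calls stand beside 20.7% lower and 19.1% higher among all tested genes. Of 14 neuron markers, 5 were tested, 1 was higher (Tubb3, log2 fold change 1.96) and 0 were lower, and 1 further marker, Ncam1 (1.06), had an unadjusted p under 0.05 without a call. Their summed level was 223 to 324 CPM in scr and 175 to 517 CPM in KO s1. Most of this sum came from Nefl, Nefm and Gap43, whose levels in scr were 120, 65.8 and 62.4 CPM. Of the defining markers, Rbfox3 had 43 reads over all 8 tumors, while Tubb3 was at 3.47 CPM per kb in scr and 12.8 CPM per kb in KO s1. Dcx and Th had 0 reads. Of 11 neuroendocrine markers, 4 were tested, Scg2 fell (-4.12), Scg5 rose (1.46) and the defining marker Chga had 55 and 64 reads over the scr and the KO s1 group without a call. Scg2 passed the filter only through the scr group. The summed level was 592 to 762 CPM in scr and 610 to 1090 CPM in KO s1, most of it from Cpe. Of 9 Schwann cell and glia markers, 3 were tested, Mbp rose (0.94), and the defining marker Sox10 had 23 reads over all tumors. Their sum was 5.13 to 7.19 CPM in scr and 7.59 to 11.1 CPM in KO s1. The part of these cells in the falls of Stx1a, Rims2 and Snap25 was not tested.

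As a check of the tissue label, 4 of 11 colon epithelium markers were tested. Krt20 was abundant, at 1181 CPM in scr and 1368 CPM in KO s1, whereas the defining markers Epcam and Krt8 were almost absent, with 36 and 65 reads over all 8 tumors. Krt18 (3.20) and Cdh1 (1.46) rose, and Cdx2 fell from 107 reads in scr to 1 read in KO s1, having passed the filter only through the scr group. The summed level was 1081 to 1291 CPM in scr and 1325 to 1450 CPM in KO s1.

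The genes around the members were examined by their RefSeq positions, known for 13001 of the 13262 tested genes. Within 1 Mb of Bsn, measured between gene centres, 64 other genes were tested. Of these, 38 were called lower (59.4%, against 20.7% of all tested genes) and 1 was called higher (1.56%, against 19.1%), with a median log2 fold change of -0.45. The median of these 64 genes, relative to the scr mean, was -0.59, -0.36, -0.41 and -0.46 in the 4 KO s1 tumors and between -0.03 and 0.01 in the scr tumors. The nearest tested genes were Mst1 (0.24, not called) and Apeh (-0.56, called lower) on one side and Dag1 (-0.60, called lower) and Nicn1 (-0.21, not called) on the other. Only Plxnb1, a semaphorin receptor gene 903 kb from Bsn, came near the size of its fall, with a log2 fold change of -3.58, and Mst1r (1.69) was the gene called higher. Bsn itself lay far below the shift of its neighbours.

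**Figure D4:**
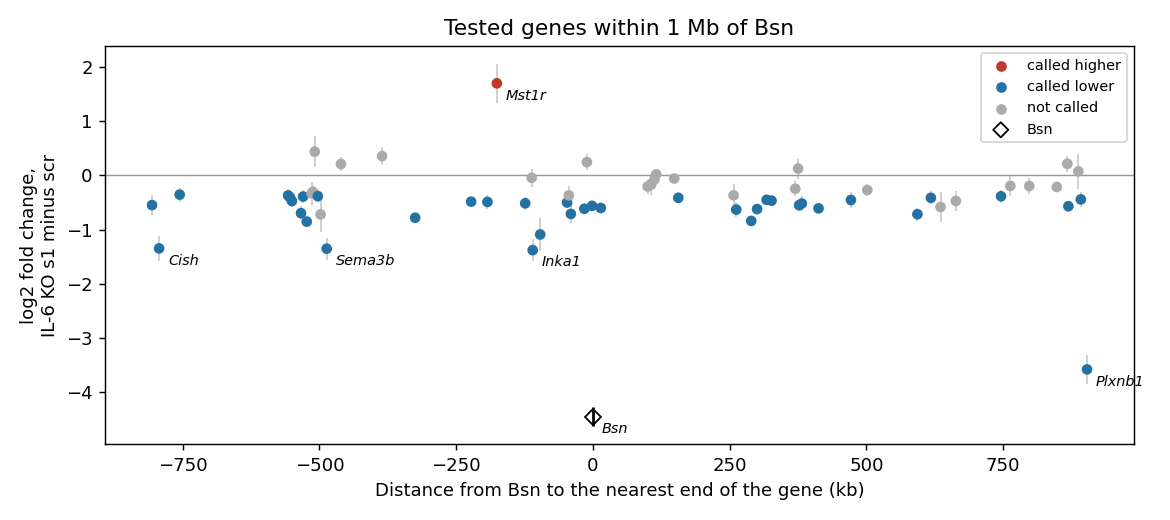
Log2 fold change (vertical axis, KO s1 minus scr, bars are the standard error) of the 64 tested genes near Bsn and of Bsn, by distance from Bsn to the nearest end of each gene (kb). Colours give the limma call. Most genes sit between 0 and -1, Mst1r is at 1.69, Plxnb1 at -3.58 and Bsn at -4.45.

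Over wider stretches the shift was smaller. The window from 100000001 to 110000000 of chromosome 9 had a median of -0.25 over 119 tested genes, and the chromosome as a whole had 0.02. With the median of its window removed in each tumor, the log2 fold change of Bsn was -4.23. Around Stx1a, 21 of 33 tested genes were lower (63.6%) and 2 were higher (6.06%), with a median of -0.45, and chromosome 5 as a whole had a median of -0.24. With its window median removed, Stx1a was at -1.15 and remained called (limma adjusted p = 0.00177). Around Rims2, 3 of 10 tested genes were lower and 3 were higher, with a median of -0.02. With its window median removed, Rims2 was at -0.71 (limma adjusted p = 0.00121). Around Unc13a 4 of 58 tested genes were lower (6.90%) and 10 were higher (17.2%). Around Syp 6 of 29 were lower (20.7%) and 3 were higher (10.3%). Around Snap25 1 of 4 tested genes was lower and 0 were higher, with a median of -0.31. Around Syn1 4 of 15 were lower and 2 were higher, with a median of -0.16. These counts stand beside 20.7% lower and 19.1% higher among all tested genes.

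The members were finally set against the other ways of processing. Bsn stayed between -4.55 and -3.95, the latter with a pseudocount of 1 CPM. Rims2 lay between -0.71 and -0.54 and Stx1a between -1.59 and -1.15, and Stx1a was called under all 17 alternatives in which it was tested. Rims2 was called under 17 of 18, with the exception of a required change of at least 2-fold.

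**Figure D5:**
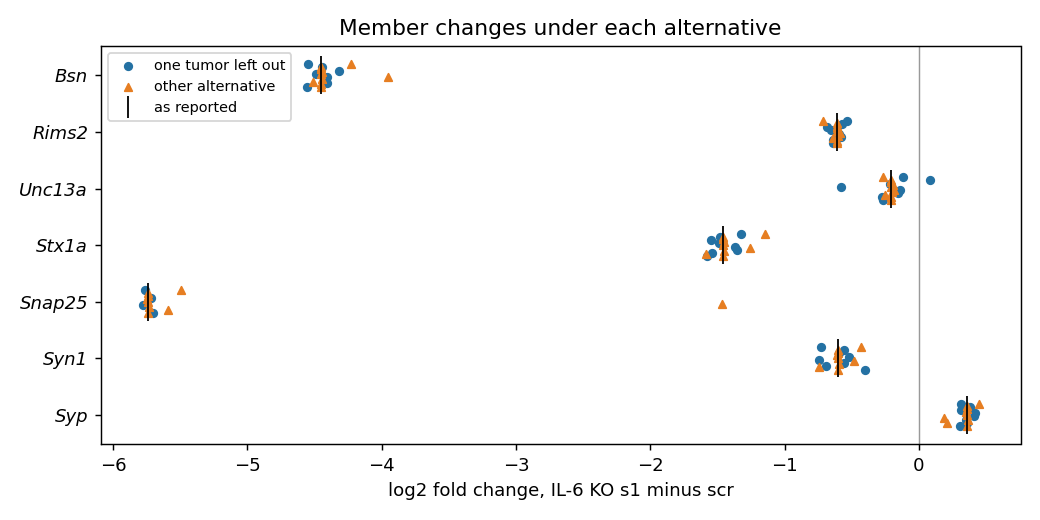
Log2 fold change (horizontal axis, KO s1 minus scr) of the 7 tested members as reported (black line), with 1 tumor left out (blue circles) and under the other alternatives (orange triangles). Bsn, Stx1a and Rims2 stay below 0 in all of them, Syp stays above 0, and Unc13a crosses 0 when KO s1 replicate 3 is left out. The Snap25 point at -1.46 is the pseudocount of 1 CPM.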

How the data were processed

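RNA was sequenced from 8 frozen tumors, 4 per group, after poly(A) selection with a NEBNext Ultra RNA kit. Trimming (Trimmomatic), alignment to mm10 (HISAT2), counting on genes (featureCounts) and normalization (limma-voom) were done by the authors. The submitters' notes also name bcl2fastq 2.17. Other versions, the annotation and the strand setting are not given in the sources used here. The deposited values are log2 CPM per gene and tumor, computed by the authors as log2 of the reads plus 0.5 over the effective library size plus 1. Whole reads were recovered from them (100% of 217432 values whole within 0.01 reads). They gave the totals of 14158989 to 17048062 reads per tumor, which limit the precision of low genes.

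Groups came from the sample titles. limma 3.58.1 in R 4.3.3 (lmFit, eBayes with a mean-variance trend, no covariates) was run on the deposited log2 CPM of the 13262 genes that reached 1 CPM in 4 or more of 8 tumors, with Benjamini-Hochberg adjustment and a threshold of 0.05, and was tested on simulated data. Nothing states which mouse each tumor came from, so p-values measure only the spread between these samples, which may be technical in part. No pair of tumors in a group agreed within sampling noise. Folds against a group without reads used 3 reads over the group. Intervals are 95%.

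The members, the gene lists and the markers were chosen with earlier results of these data known. Named genes were the members, the most expressed gene and up to 3 called genes of largest change per direction in each list, the 5 genes most like Bsn by Pearson's r, the 2 nearest tested genes on each side of Bsn, Il6 and Rest. Family relatives, Git1, Erc1, Erc2, Unc13b, Unc13c, Areg, Il11, Plxnb1, Mst1r, Ncam1, Hdac2, Hmg20b, the defining markers and the genes behind the marker sums were named after their values were seen. Exon lengths and overlaps came from GENCODE M21 (GRCm38). Alternatives were other filters, normalizations, variances, weights, a pseudocount of 1 CPM, a 2-fold threshold, the replicate number as a block, removal of 10 Mb window medians, and each tumor left out in turn.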

Additional observations from a re-analysis of the deposited data

Results flagged for a closer look

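Within the groups of 4 tumors, 127 sets of values were checked for a single tumor far from the other 3 by Dixon's criterion at 95%. In all, 17 were found, where about 6.35 would be by chance if values were independent and normally spread. That number does not hold for Pclo, or for Sv2c and Cdx2 in KO s1, where all reads of a group lay in 1 tumor. Values are log2 CPM.

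For the members, Pclo was at -3.25 in scr replicate 3 (1 read) and at -2.66 in KO s1 replicate 3 (2 reads), with no read in the other tumors. In the lists of synaptic genes, scr replicate 1 stood apart for Git1 (6.65), Stx3 (3.39, the lowest) and Pacsin2 (7.05). Syt11 was at 2.64 in scr replicate 3 and at 2.93 in KO s1 replicate 1. Sv2c was at 0.76 in scr replicate 2 and at -3.39 in KO s1 replicate 3, which had its only read in that group. In KO s1, Unc13d was at 2.74 in replicate 1, and Dnm3 (0.88) and Pacsin3 (5.85) were highest in replicate 2. Among the markers, Scg5 was at 0.19 in scr replicate 4, and Mbp (2.48) and Cdx2 (-3.44) stood apart in KO s1 replicate 1. Mst1, beside Bsn, was at 3.77 in scr replicate 4, and Il6 was at 2.46 in KO s1 replicate 3. Bsn, Rims2, Stx1a, Snap25, Syn1, Syp and Unc13a had no such tumor.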

How the results depend on the processing

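Calls of members other than Bsn were 3 lower and 0 higher. A mean of at least 3 log2 CPM left 1 lower, since Stx1a and Snap25 were then not tested, and dropping the mean-variance trend gave 1 higher (Syp). With 1 tumor left out, 2 to 4 were lower and 0 higher. Snap25 was not tested when a scr tumor was left out, and Unc13a was the added call without KO s1 replicate 1. The listed genes, with REST and its cofactors included, gave 30 lower and 23 higher. With the filter at a mean of 3 log2 CPM 15 were higher, and with 1 tumor left out 21 to 29 were lower and 19 to 26 higher. A required 2-fold change left 8 lower and 8 higher of these, and 521 lower and 829 higher of all genes, against 2748 and 2529 (2132 to 2639 and 2018 to 2531 with 1 tumor left out). Bsn moved from -4.45 to -3.95 with a pseudocount of 1 CPM, and leaving out 1 tumor gave -4.55 to -4.32. Changes that turned sign with 1 tumor left out had not been called: the Unc13a change (-0.58 to 0.083), the Clstn1 change (-0.070 to 0.10, from 0.03) and the Ehmt2 change (-0.011 to 0.070, from 0.03). Apart from the 2-fold requirement, which took the call from 25 of the single genes named, 938 values of single genes under an alternative kept direction and call, 20 lost the call, 4 gained one, 8 turned sign and 1 moved. The low depth of Snap25, Syp and Pclo limits what can be said of them.

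Replicate numbers are shared between groups. Same-numbered tumors showed no clear shared deviation (r = -0.06, 0.06, 0.02 and -0.06, and 1 of 4 was closest to its own number). With 4 tumors per group this cannot exclude a shared day or batch, and the main comparison did not pair them. With the replicate number as a block, 3 members were lower and 0 higher, 29 listed genes lower and 23 higher, and 2688 and 2477 of all genes.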
